A study of Homo sapiens with 12 samples.

Results

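Gemcitabine was given at 2 mM glutamine to MIA PaCa-2, a long-established human line from pancreatic cancer, and its effect on the transcriptome was read against untreated cells at the same glutamine dose. The drug-treated libraries come from cultures kept for 48 h with L-glutamine at 2 mM and gemcitabine at 0.5 µM, and the untreated libraries from cultures kept for 48 h with L-glutamine at 2 mM and no gemcitabine. There were 3 libraries per group, which the series describes as biological triplicates, so 6 of the 12 libraries of the series belong to this comparison. The other 6 hold the same pair of groups at 40 mM L-glutamine. All groups are wild type per the labels and share glutamine-free RPMI 1640 medium to which glutamine was added back. Genes were chosen by level: 12789 of the 15090 listed genes reached 1 read per 1000000 reads (RPM) in at least 3 of the 12 libraries, and all of these were tested. ZNF8-ERVK3-1 and WNT10A lay just inside that limit, each with 1.0004 RPM in the library with the third-highest value, and C19orf73 just outside it at 0.999 RPM. The series title names amino acid transport and sensitivity to chemotherapy as its subjects.

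Gemcitabine is an analogue of deoxycytidine. Cells phosphorylate it through deoxycytidine kinase, and its products block ribonucleotide reductase, which makes deoxynucleotides, and stop DNA polymerases once built into a new strand. Stalled forks call in the ATR and CHK1 checkpoint, and DNA that leaks from a damaged nucleus can be read by sensors of foreign nucleic acid. Those sensors signal to interferon genes, and interferon acts through a complex that includes STAT2 and IRF9 on a promoter element known as the interferon-stimulated response element.

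Depth did not part the groups: the 3 drug-treated libraries held 26404004, 21723094 and 32811746 reads in listed genes, and the 3 untreated ones 25391219, 22797503 and 27369377. The median tested gene was covered by 715 reads in a library, and counting error by itself then amounts to a coefficient of variation of 3.74%. The line's own markers were present, with 2318 ± 40.3 RPM of the keratin KRT8 in drug-treated and 1682 ± 45.3 RPM in untreated libraries (SD, n = 3 each), and 3200.1 ± 61.6 against 3437 ± 55.6 RPM of VIM, the intermediate filament of mesenchymal cells. Of the lists of acinar and islet markers and of endothelial markers, 0 genes reached the tested level, and 2 immune and 4 fibroblast markers did. The fibroblast markers were not low: they summed to a median of 622 RPM in drug-treated and 774 RPM in untreated libraries. The listed immune markers summed to 4.63 and 4.95 RPM in the same order. Because RNA was taken from bulk cultures, more cells in a state and more RNA per cell cannot be told apart in any result given here.

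With gemcitabine, antiviral genes rose furthest, and genes of DNA replication, mitosis and recombination rose widely by smaller amounts. In lists of redox defence, lipid synthesis and mTOR regulation more genes fell than rose, with list medians on the log2 scale from −0.09 to −0.02. In all, 2237 genes were higher, which is 17.5% of those tested, and 2185 were lower, which is 17.1% (limma with Benjamini-Hochberg adjustment over 12789 genes, threshold 0.05). Either direction together came to 34.6%. The median log2 difference over all tested genes was −0.0011, and the median size of a called difference was 0.248 on the log2 scale. The tails were unequal on this scale: 35 genes rose 2-fold or more (0.274%) and 1 fell that far (0.00782%). Both counts depend on the processing, since some genes lay close to the 2-fold limit. The 3 libraries of one group lay wholly above or below the 3 of the other for 5893 genes, or 46.1%. All log2 differences are drug-treated minus untreated on the log2(RPM + 1) scale, each with its standard error, and this scale understates changes of genes at a low level.

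**Figure D1:**
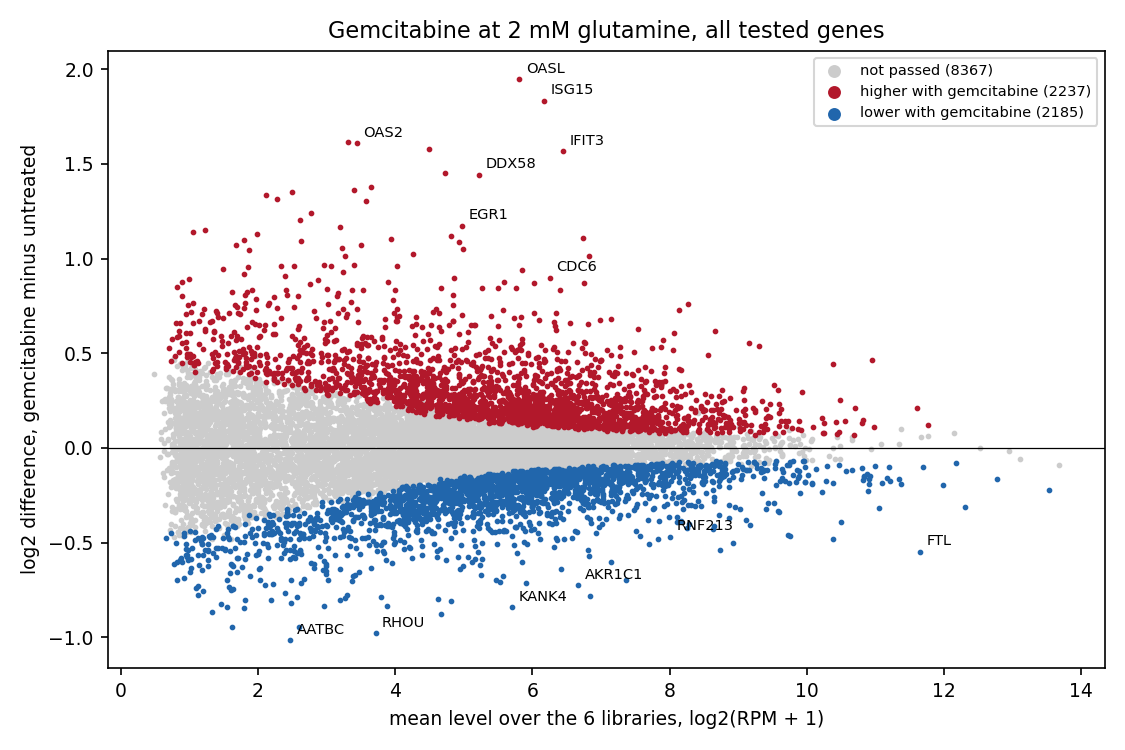
Log2 difference with gemcitabine (drug-treated minus untreated at 2 mM glutamine, vertical axis) against mean level over the 6 libraries in log2(RPM + 1) (horizontal axis), 1 point per tested gene. The 2237 genes that rose reach 1.95 at OASL, while the 2185 that fell reach −1.01 at AATBC.

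Antiviral effectors led the rises. The promoters printed next are those of the 4 effectors with the largest rises among the 42 with a listed promoter that hold the response element within the 160 bases before the start, and of IFITM1, which fell although its promoter holds the element too. OASL and OAS2, whose rises were also large, are not among the 42. The sequences are RefSeq's for GRCh38.p14, read 5′ to 3′ and ending at the base before the start of transcription, and capitals mark the element's core, which is GAAA, any 2 bases and GAAA again, or its reverse complement.
ISG15 promoter, chr1:1013337-1013496, plus strand: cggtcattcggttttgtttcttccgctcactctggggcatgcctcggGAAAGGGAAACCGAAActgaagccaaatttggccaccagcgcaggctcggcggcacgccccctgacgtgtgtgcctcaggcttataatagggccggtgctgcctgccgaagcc
HERC5 promoter, chr4:88456959-88457118, plus strand: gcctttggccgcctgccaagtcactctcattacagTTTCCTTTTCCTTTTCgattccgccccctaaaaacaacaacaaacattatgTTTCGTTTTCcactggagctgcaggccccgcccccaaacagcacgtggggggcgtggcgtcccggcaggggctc
IFIT3 promoter, chr10:89327837-89327996, plus strand: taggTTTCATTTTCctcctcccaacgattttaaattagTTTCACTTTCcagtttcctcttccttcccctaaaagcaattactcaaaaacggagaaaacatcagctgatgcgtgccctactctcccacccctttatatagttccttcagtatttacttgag
DDX60 promoter, chr4:168318753-168318912, minus strand: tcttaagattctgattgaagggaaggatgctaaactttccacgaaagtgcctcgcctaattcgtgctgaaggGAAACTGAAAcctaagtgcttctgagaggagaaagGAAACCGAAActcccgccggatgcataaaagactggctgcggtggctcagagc
IFITM1 promoter, chr11:313880-314039, plus strand: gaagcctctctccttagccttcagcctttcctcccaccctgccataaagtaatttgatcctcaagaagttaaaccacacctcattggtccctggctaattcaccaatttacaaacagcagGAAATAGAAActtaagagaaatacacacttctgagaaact
The element was searched on both strands in the 300 bases from 250 before to 50 after the start, over every listed start of a gene. It stood in 3.67% of the 10055 tested genes with a listed promoter and in 3.57% of all 35116 promoters. Among the effectors, 30 of 42 with a promoter held it (71.4%). The median log2 difference of those 30 was 0.53, and 24 of them rose, against a median of 0.22 and 8 rises among the 12 without it. The element occurred in 4.47% of all genes that rose, in 3.33% of those that fell and in 3.54% of those that did not pass.

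Of 55 tested interferon effectors, 40 rose, 4 fell and 11 did not pass, and their median log2 difference was 0.40, against −0.0011 for all tested genes. OASL, a relative of the oligoadenylate synthetases that lacks their enzyme activity, had 113, 105 and 111 RPM in drug-treated libraries and 29.3, 24.7 and 29.1 RPM in untreated ones. The groups lay far apart, with a log2 difference of 1.95 ± 0.053 (SE, n = 3 per group; limma adjusted p = 5.31e-25). ISG15, a ubiquitin-like protein that is joined to other proteins, had 139, 136 and 132 RPM with the drug and 38.6, 36.4 and 36.9 RPM without. Its lowest drug-treated library was far above its highest untreated one, and the difference was 1.83 ± 0.05 (adjusted p = 5.31e-25). HERC5, the ligase that joins ISG15 to its targets, stood at 39.6, 36 and 38.1 RPM with gemcitabine and 12.4, 13.8 and 10.2 RPM without, a difference of 1.58 ± 0.08 (adjusted p = 5.9e-17). USP18, which takes ISG15 off again, rose by 0.58 ± 0.1.

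The IFIT proteins bind viral RNA, and their genes lie side by side. IFIT3 had 149, 148 and 151 RPM in drug-treated and 52.8, 46.5 and 50.2 RPM in untreated libraries, a rise of 1.57 ± 0.042 (adjusted p = 5.31e-25). IFIT2 rose by 1.11 ± 0.042 and IFIT1 by 0.87 ± 0.042, and the untreated level was highest for IFIT1, at 79 ± 3.18 RPM, and lowest for IFIT3, at 49.8 ± 3.13 RPM (SD, n = 3). The oligoadenylate synthetases, which answer double-stranded RNA, rose as well, with OAS2 at 1.61 ± 0.1, OAS1 at 1.31 ± 0.13 and OAS3 at 1.05 ± 0.064. IFIT, IFITM and HLA genes have close relatives, and the counting may have split or merged their reads.

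The 4 effectors that fell were RNF213, a large ubiquitin ligase, IFITM1 and IFITM2, membrane proteins that hinder virus entry, and MX2, a dynamin-like GTPase. RNF213 had 228, 215 and 212 RPM in drug-treated libraries and 347, 309.9 and 257 RPM in untreated ones, with no overlap and a log2 difference of −0.47 ± 0.054 (limma adjusted p = 1.61e-08). IFITM1 stood at 100.2, 101 and 97.5 RPM against 137, 126 and 131 RPM, a difference of −0.39 ± 0.046 (adjusted p = 2.67e-08). IFITM3 did not pass, at −0.00 ± 0.045. MX2 had −0.22 ± 0.073, and its call ended without drug-treated replicate 1 or untreated replicate 2 (adjusted p up to 0.0785).

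Among 21 sensors of nucleic acid and their partners, 10 rose and 1 fell (median 0.17). Some of these rises are counted in other lists too: TRIM25 among the effectors, RNASEH2A among the polymerase genes, and SAMHD1 among the genes of deoxynucleotide supply and of drug metabolism. DDX58, the gene of the RNA sensor RIG-I, had 62.8, 59.4 and 59.4 RPM with the drug and 21.1, 21.4 and 22.4 RPM without, a rise of 1.44 ± 0.054 (limma adjusted p = 1.11e-20). IFIH1, which encodes the RNA sensor MDA5, had 18.7, 16.4 and 17.9 RPM in drug-treated libraries and 7.18, 5.37 and 7.3 RPM in untreated ones, a rise of 1.30 ± 0.099. On the DNA side, STING1, the adaptor of the cGAS pathway, had 15.4, 15.9 and 14.9 RPM against 8.1, 5.73 and 6.78 RPM and rose by 1.07 ± 0.11 (adjusted p = 2.03e-09). In all 3 genes every drug-treated library was above every untreated one. CGAS itself rose by 0.27 ± 0.063, and MAVS, the adaptor of the RNA sensors, fell, with −0.12 ± 0.031.

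The signalling genes between sensors and effectors passed about as often as tested genes did in all (34.6%). Of 22 tested, 5 rose, 3 fell and 14 did not pass, with a median of 0.05, and the count of rises was 2 without drug-treated replicate 2 or 3 or untreated replicate 2, and 3 without untreated replicate 3. IRF1, a transcription factor of the interferon response, had 29.7, 25.1 and 27.6 RPM in drug-treated and 22.7, 18.9 and 21.3 RPM in untreated libraries and rose by 0.37 ± 0.073. IRF9 had 0.22 ± 0.079 and STAT2 −0.14 ± 0.052, and the call of IRF9 ended without drug-treated or untreated replicate 2 or 3, and that of STAT2 without any library other than untreated replicate 2 (limma adjusted p up to 0.101 for IRF9 and 0.128 for STAT2). The receptor chains IFNAR1 (0.02 ± 0.041) and IFNAR2 (0.05 ± 0.066) did not pass. IFNL1, a type III interferon, lay under the tested level, at 0.344, 0.372 and 0.278 RPM with the drug and 0, 0 and 0.185 RPM without. IRF7, which drives interferon genes, was also under it, at 0.0765, 0.0465 and 0.0617 RPM in drug-treated and 0.239, 0.537 and 0.333 RPM in untreated libraries. Of the 28 signalling genes looked for, 24 were found in the deposited table, and 22 of those reached the tested level.

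Of 19 genes of antigen presentation on MHC class I, 11 rose and 1 fell. HLA-B, a heavy chain, had 116, 108 and 109.9 RPM in drug-treated libraries and 65.5, 60.5 and 60.5 RPM in untreated ones (0.83 ± 0.046, limma adjusted p = 6.04e-16), with the groups apart. HLA-C rose by 0.54 ± 0.1, the shared light chain B2M by 0.34 ± 0.079, and NLRC5, the activator of these genes, by 0.40 ± 0.12, though without drug-treated replicate 1 the adjusted p of NLRC5 was 0.0504. ULBP1, a stress ligand seen by natural killer cells, fell, with −0.34 ± 0.086. Of 19 NF-κB genes and cytokines, 10 rose and 1 fell. CSF3, the granulocyte growth factor, rose by 1.12 ± 0.065, LIF by 0.70 ± 0.067 and the neutrophil attractant CXCL8 by 0.65 ± 0.072, while CSF1, the macrophage growth factor, fell, with −0.48 ± 0.038.

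**Figure D2:**
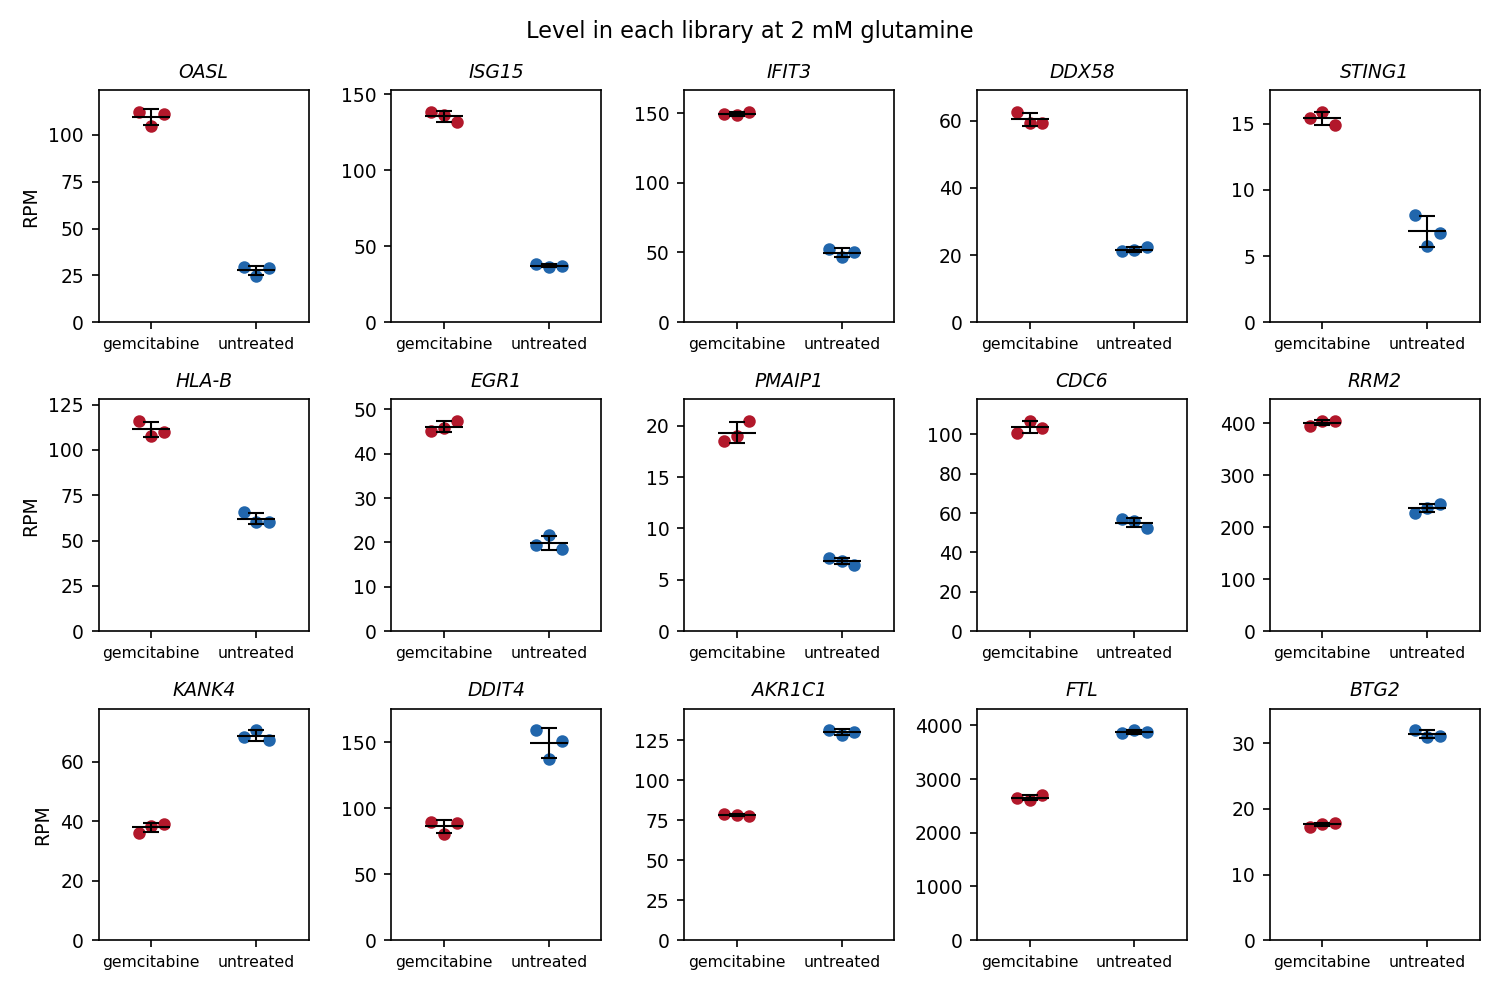
Level in RPM (vertical axes, each from 0) of 15 genes in the 3 gemcitabine libraries (left in each panel) and the 3 untreated libraries (right) at 2 mM glutamine; bars give the mean and SD. The groups do not overlap in any panel, and OASL averages 109 RPM with the drug against 27.7 RPM without. The naming rule for the largest rises and falls takes only genes whose groups do not overlap, so for such genes this was set by the choice. Over all tested genes the groups lay apart for 46.1%.

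Replication genes rose more evenly than the antiviral genes. Of 32 genes that load and start the replicative helicase, 27 rose and 0 fell, with a median of 0.45. Of 21 polymerase, primase and strand-joining genes, 18 rose (median 0.32), and of 23 genes of the sliding clamp and of chromatin assembly, 21 rose (median 0.41). CDC6, which brings the helicase to origins, had 101, 107 and 103 RPM in drug-treated libraries and 57, 56.1 and 52.6 RPM in untreated ones. The groups did not overlap, and the rise was 0.90 ± 0.048 (limma adjusted p = 1.7e-16). MCM10, which activates the loaded helicase, rose by 0.84 ± 0.055, CDC45, a part of the moving helicase, by 0.73 ± 0.051, and EXO1, an exonuclease that trims DNA ends, by 0.84 ± 0.062. PCNA, the clamp itself, had 155, 162 and 161 RPM with the drug and 98.1, 100.2 and 100.3 RPM without (0.67 ± 0.036).

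The promoters of CDC6 and CDC45, which had the largest rises among replication genes with an E2F motif before the start, are printed with that motif in capitals.
CDC6 promoter, chr17:40287719-40287878, plus strand: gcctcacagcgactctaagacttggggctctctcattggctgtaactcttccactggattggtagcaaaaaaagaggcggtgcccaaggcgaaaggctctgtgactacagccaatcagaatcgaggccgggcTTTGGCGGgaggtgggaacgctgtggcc
CDC45 promoter, chr22:19479760-19479919, plus strand: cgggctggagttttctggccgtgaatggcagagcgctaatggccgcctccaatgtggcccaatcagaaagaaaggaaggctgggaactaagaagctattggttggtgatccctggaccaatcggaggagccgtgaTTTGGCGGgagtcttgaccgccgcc
TTTGGCGC, TTTCCCGC or TTTGGCGG, forms of the E2F site, stood in 17 of the 28 helicase-loading genes with a listed promoter (60.7%), against 6.03% of tested genes and 2.89% of all promoters. They occurred in 9.27% of the genes that rose and in 4.34% of those that fell.

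The enzymes that supply deoxynucleotides, among them the drug's targets, rose in part. RRM2, the small subunit of ribonucleotide reductase, had 395, 406 and 404 RPM in drug-treated and 229, 237 and 245 RPM in untreated libraries (0.76 ± 0.031, limma adjusted p = 1.22e-19). RRM1, the large subunit, rose by 0.35 ± 0.032, the thymidine kinase TK1 by 0.65 ± 0.042, and the thymidylate synthase TYMS by 0.43 ± 0.086. CTPS1, which uses glutamine to make CTP, had 109, 109.5 and 106 RPM against 78.4, 75.2 and 73.9 RPM and rose by 0.51 ± 0.041. Over the 21 genes of this supply, 11 rose and 1 fell. Among 20 genes of the drug's own transport and metabolism, 10 rose and 2 fell, and some of these are also in the supply list. The 2 falls were SLC29A2 (−0.22) and RRM2B (−0.17), which is also the fall of the supply list. The call of RRM2B ended without any library of the comparison but drug-treated replicate 3 (limma adjusted p up to 0.145). That of SLC29A2 ended without any but drug-treated replicate 2, and with no filter or no scaling factors (up to 0.153). SLC29A1, the main importer of nucleosides, had 128, 135 and 128 RPM with the drug and 100.2, 103 and 93 RPM without (0.40 ± 0.041). The nucleotidase gene NT5C rose by 0.48 ± 0.11. DCK, the activating kinase, had 22.4, 23.2 and 24.5 RPM in drug-treated and 21.5, 24.6 and 23.5 RPM in untreated libraries and did not pass (0.01 ± 0.082). Of 10 transporters of the ABC family, 2 rose and 4 fell, with ABCC3 at −0.62 ± 0.12 and ABCA3 at −0.40 ± 0.046. Whether any of them carries the drug was not tested.

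Genes of the G1 to S step moved both ways. Of 28 tested, 19 rose and 4 fell. E2F1 rose by 0.71 ± 0.05, E2F7 by 0.77 ± 0.11 and the cyclin gene CCNE2 by 0.77 ± 0.14. CDKN1A, the inhibitor known as p21, had 9.29, 9.01 and 11.1 RPM with the drug and 5.74, 4.3 and 5.11 RPM without, a rise of 0.84 ± 0.15 at a low level. CDKN1B, its relative p27, fell instead, with 32.4, 31.4 and 32.1 RPM against 43.4, 41.8 and 40.9 RPM (−0.38 ± 0.055), and so did the cyclin gene CCND1 (−0.29 ± 0.033).

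Mitosis genes rose with few exceptions: 52 of 63 rose and 1 fell, with a median of 0.26, and 13 of 14 mitotic kinesins rose (median 0.27). FOXM1, a transcription factor of late cell cycle genes, had 249.8, 256 and 259.9 RPM in drug-treated and 175, 183 and 173 RPM in untreated libraries (0.53 ± 0.033, limma adjusted p = 8.83e-15). MYBL2 rose by 0.49 ± 0.031, AURKB, a kinase of the chromosomal passenger complex, by 0.50 ± 0.04, and the motor KIF11 by 0.43 ± 0.036. The gene that fell was CDC25B (−0.10 ± 0.028), and it is named because it was the only one. Promoters of NCAPG, a condensin subunit, and KIF11 are shown with the cell cycle homology region motif, TTTGAA or its reverse complement, in capitals.
NCAPG promoter, chr4:17810819-17810978, plus strand: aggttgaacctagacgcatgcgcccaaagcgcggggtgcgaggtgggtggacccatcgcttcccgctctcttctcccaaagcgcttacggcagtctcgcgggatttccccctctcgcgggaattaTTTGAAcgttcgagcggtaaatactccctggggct
KIF11 promoter, chr10:92592970-92593129, plus strand: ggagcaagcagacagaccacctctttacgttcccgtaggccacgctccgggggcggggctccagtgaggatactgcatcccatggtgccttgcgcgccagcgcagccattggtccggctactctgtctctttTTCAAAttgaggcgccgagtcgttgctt
TTTGAA stood in 31 of 50 mitosis promoters (62.0%) and in 9 of 13 kinesin promoters (69.2%), against 13.1% of tested genes and 15.2% of all promoters. It occurred in 15.6% of the genes that rose and in 11.0% of those that fell, and in 7 of 18 promoters (38.9%) of the BMP, TGF-β and ID group, where falls outnumbered rises. The 3 motif groups described were picked from 12 motifs after their counts had been seen. Of the 7 motifs not yet given, CCAAT stood in 37 of the 50 mitosis promoters (74.0%), against 42.9% of tested genes, 46.1% of genes that rose and 41.5% of genes that fell. Its share was also high in lists that did not mainly rise, at 78.9% for cholesterol genes and 77.8% for fatty acid genes, and reached 91.3% for chaperones of the endoplasmic reticulum. A longer form of the interferon element, with CT after the core, occurred in 0.927% of genes that rose and 0.282% of genes that fell. It stood in 16 of the 42 effectors with a promoter (38.1%), against 0.338% of tested genes. Shares in risen and fallen genes were 3.93% and 3.72% for TGACGTCA, 5.02% and 3.72% for TGAGTCA, 9.22% and 7.78% for TTCNNNGAA, 0.218% and 0.282% for the NF-κB site, and 0.0546% and 0.0564% for the serum response element. Some of these had larger shares in single lists. TTCNNNGAA stood in 12 of 42 effectors (28.6%), against 8.41% of tested genes. The NF-κB site stood in 3 of 14 NF-κB genes and cytokines (21.4%), against 0.229%. A match describes letters in a window and was not tied to binding.

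Repair genes that act at broken forks rose: 27 of 39 genes of homologous recombination and the Fanconi pathway were higher and 2 lower, with a median of 0.35. The count of falls was 0 without drug-treated replicate 1, and 1 without any other library of the comparison but untreated replicate 3. RAD54B, a motor protein of strand exchange, had 21.8, 19 and 19.7 RPM with the drug and 11.3, 11.9 and 13 RPM without (0.70 ± 0.084, limma adjusted p = 4.56e-08). BRCA1 rose by 0.48 ± 0.047 and FANCI by 0.48 ± 0.045. Among 23 checkpoint genes, 9 rose, 2 fell and 12 did not pass (median 0.13). CHEK1, the gene of CHK1, rose by 0.15, and its call ended without untreated replicate 3 (limma adjusted p = 0.0841). The kinase gene WEE1 did not pass (0.10). CLSPN, the adaptor that lets ATR act on CHK1, had 106, 101 and 101 RPM in drug-treated and 64.6, 63.4 and 59.1 RPM in untreated libraries (0.71 ± 0.047). ATM, the kinase of double-strand breaks, fell, with 66, 65.6 and 62.6 RPM against 93, 83.7 and 74 RPM (−0.36 ± 0.053).

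Targets of p53 had no common direction. Of 36 tested, 14 rose, 8 fell and 14 did not pass, and 8 rose in the fit without drug-treated replicate 3. PMAIP1, which encodes the death-promoting protein NOXA, had 18.5, 19 and 20.5 RPM in drug-treated libraries and 7.1, 6.85 and 6.48 RPM in untreated ones, with a rise of 1.38 ± 0.088 (limma adjusted p = 2.07e-14). BTG2, a brake on proliferation, went the other way, with 17.3, 17.7 and 17.9 RPM against 32.1, 31 and 31.2 RPM (−0.80 ± 0.067, adjusted p = 1.74e-11). The groups were apart for both genes. TP53INP1, a p53 target of autophagy and cell death, fell, with −0.68 ± 0.11, whereas MDM2, the ligase of p53, did not pass (0.01 ± 0.049). In the BCL2 family and caspases, 9 of 24 rose and 2 fell. BCL2L1, which holds cell death back, rose by 0.29 ± 0.044. Of genes that promote it, BMF fell, with −0.82 ± 0.15, while BIK rose by 0.64 and PMAIP1 had the largest rise of this list.

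Of 38 immediate-early and growth factor response genes, 17 rose and 3 fell. EGR1, a transcription factor switched on by growth signals, had 45.2, 45.8 and 47.5 RPM with the drug and 19.5, 21.7 and 18.6 RPM without (1.17 ± 0.074, limma adjusted p = 1.57e-14). FOSL1 rose by 0.53 ± 0.039 and HBEGF, a ligand of the EGF receptor, by 0.69 ± 0.11. Large rises were also found outside the lists described here. CD68, a lysosomal membrane protein also used as a macrophage marker, had 42.5, 43.9 and 43.3 RPM in drug-treated and 20.3, 20 and 19.2 RPM in untreated libraries (1.09 ± 0.062). COL17A1, a collagen of hemidesmosomes, rose by 1.01 ± 0.04, FSCN1, which bundles actin, by 0.94 ± 0.056, and S100A2, a calcium-binding protein, by 1.61 ± 0.13.

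Falls were shallower, and several lists of metabolism and of mTOR regulation had more of them than of rises. Of 37 genes of NRF2 and redox defence, 12 fell, 7 rose and 18 did not pass (median −0.02). AKR1C1, a ketosteroid reductase, had 79.1, 78 and 77.5 RPM in drug-treated libraries and 132, 128 and 130.3 RPM in untreated ones (−0.73 ± 0.041, limma adjusted p = 9.71e-16), and it shares much of its sequence with other AKR1C genes. FTL, the ferritin light chain, had 2644, 2611 and 2713 RPM against 3856, 3923 and 3874 RPM (−0.55 ± 0.027, adjusted p = 1.47e-17). NQO1, a quinone reductase, fell too, with −0.47 ± 0.027. The change furthest from 0 in the same list was a rise, that of AKR1B1, an aldose reductase, which had 15, 16.7 and 16.2 RPM with the drug against 5.11, 6.09 and 5.6 RPM without (1.36 ± 0.1). TXNRD1, the thioredoxin reductase, rose by 0.33 ± 0.026.

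Of 35 genes that restrain or regulate mTOR, 13 fell, 5 rose and 17 did not pass (median −0.05). The count of rises was 1 without drug-treated replicate 3 and 2 without drug-treated replicate 2 or untreated replicate 1 or 2. DDIT4, a stress-induced inhibitor of mTOR, had 89.7, 80.5 and 88.7 RPM with the drug and 159.8, 138 and 151 RPM without (−0.78 ± 0.055, limma adjusted p = 1.67e-13). CASTOR1, an arginine sensor, fell, with −0.61 ± 0.097, and TSC1 with −0.35 ± 0.062. Of 25 cholesterol genes, 9 fell and 4 rose (median −0.09), and of 19 fatty acid genes, 6 fell and 3 rose (median −0.08). INSIG1, the retention factor of the sterol sensor, had −0.58 ± 0.064, and the desaturase SCD had −0.46 ± 0.03, with 742, 689 and 734 RPM against 1011, 962 and 1006 RPM. Of 19 genes of the BMP, TGF-β and ID group, 9 fell and 3 rose, with ID2 at −0.58 ± 0.056 and ID3 at −0.48 ± 0.036. KANK4 had the largest fall at or above the median level, with 36.2, 38.5 and 39.2 RPM in drug-treated libraries and 68.2, 70.9 and 67.3 RPM in untreated ones (−0.84 ± 0.054, adjusted p = 1.87e-14).

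Ribosomal protein genes fell together by little: 47 of 81 were lower and 1 higher, with a median of −0.09. Genes that build ribosomes went the other way, with 26 of 45 higher, 4 lower and a median of 0.14. NOP56, a protein of the small nucleolar particles, rose by 0.35 ± 0.031. Proteasome subunits rose in 17 of 30 cases and fell in 0, PSMC4 by 0.27 ± 0.038. Of 35 autophagy genes, 11 fell and 1 rose, with the kinase gene ULK2 at −0.29 ± 0.044.

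**Figure D3:**
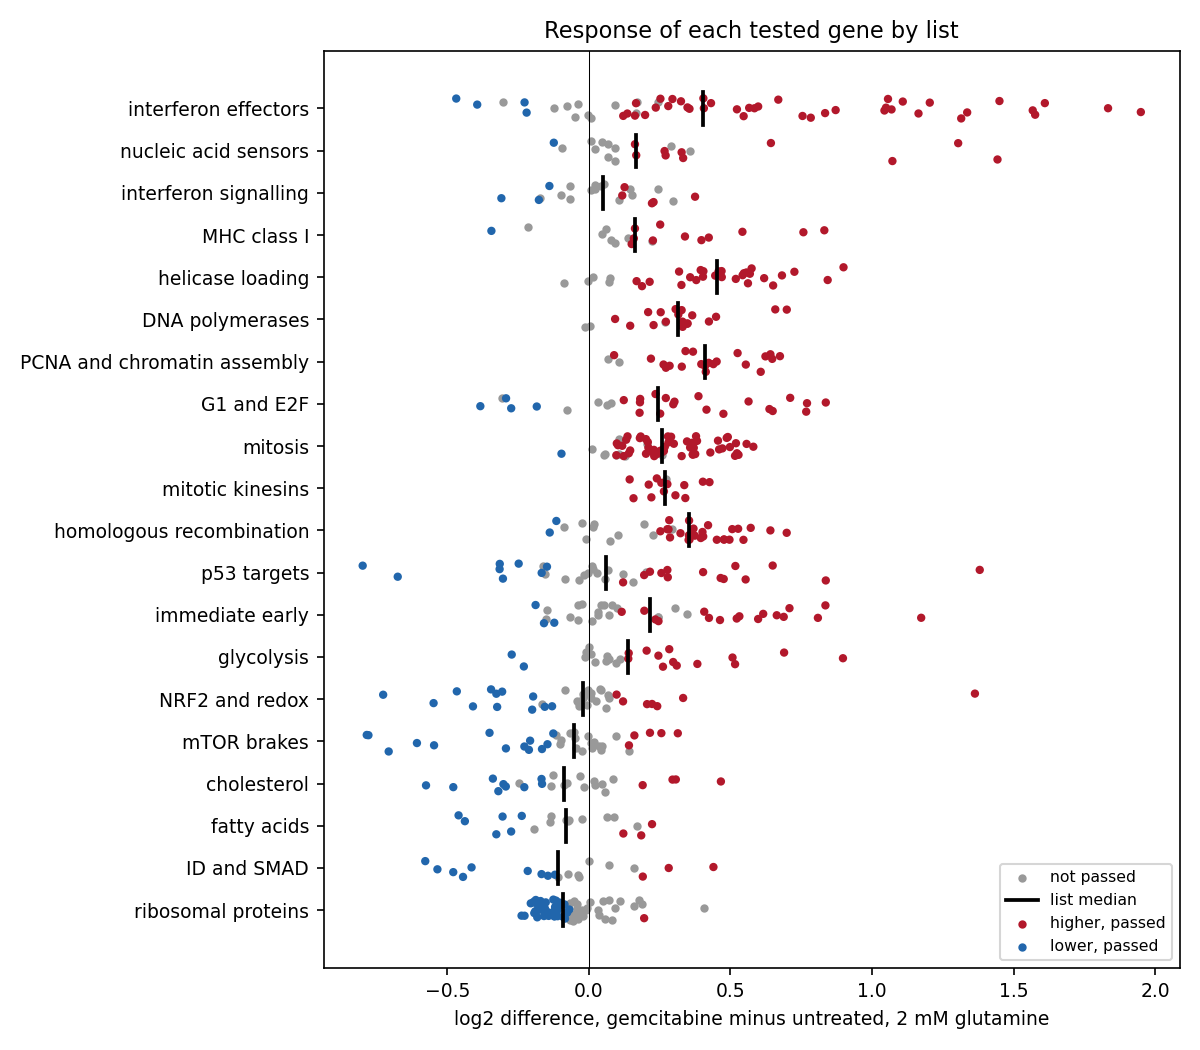
Log2 difference with gemcitabine at 2 mM glutamine (drug-treated minus untreated, horizontal axis) for every tested gene of 20 lists (rows); coloured points passed the threshold and black bars are list medians. Medians run from 0.45 for helicase loading to −0.11 for the ID and SMAD genes.

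The response was set against that at 40 mM glutamine, which shares no libraries with it and where 30.3% of tested genes passed, 14.1% higher and 16.2% lower. The difference between the responses passed for 281 genes (2.2%), 188 above 0 (1.47%) and 93 below (0.727%), and 1942 had an unadjusted p under 0.05 (limma). The count was 155, 157 and 180 without drug-treated replicate 1, 2 or 3 at 2 mM, and 165 without untreated replicate 1 at 2 mM. It was 174 without drug-treated replicate 1 and 165 without untreated replicate 3 at 40 mM.

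Of the lists with at least 5 tested genes, glycolysis had the largest share of members whose responses differed between the glutamine doses. At 2 mM glutamine, 13 of 25 glycolysis genes rose and 2 fell, or 1 without drug-treated replicate 1 or 2 or untreated replicate 1 or 3. At 40 mM, 2 rose and 9 fell. The medians were 0.14 and −0.05, and 13 genes passed the test of the difference, all with the higher response at 2 mM. PFKFB4, which makes a regulator of phosphofructokinase, had 38.2, 37.7 and 39.5 RPM with the drug and 20.9, 17.7 and 22.2 RPM without at 2 mM, and 32.8, 28 and 36.7 RPM with and 37.1, 26.2 and 29.9 RPM without at 40 mM. The 3 untreated libraries at 2 mM were thus the lowest of the 12, and the responses were 0.90 at 2 mM and 0.07 at 40 mM (adjusted p of the difference = 0.000217). SLC2A1, the glucose transporter, had 122, 109.7 and 115 RPM with the drug and 91.3, 88.4 and 85.9 RPM without at 2 mM, and 111, 114 and 116 RPM with and 119, 112 and 115 RPM without at 40 mM (adjusted p = 0.000112). PDK1, a kinase that inhibits pyruvate dehydrogenase, responded by 0.51 at 2 mM and −0.06 at 40 mM (adjusted p = 0.00012). In the same order, LDHA, the lactate dehydrogenase, responded by 0.14 and −0.13 (adjusted p = 6.37e-05). PKM, the pyruvate kinase, had 0.02 and −0.25 (adjusted p = 4.71e-05).

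Replication genes rose at both doses and more at 2 mM: the helicase-loading median was 0.45 at 2 mM and 0.29 at 40 mM, and 11 of 32 passed the test of the difference, all above 0. CDC6 responded by 0.90 at 2 mM and 0.44 at 40 mM (adjusted p = 0.000119), MCM5, a helicase subunit, by 0.68 and 0.30 (adjusted p = 6.37e-05), and PCNA by 0.67 and 0.33 (adjusted p = 0.000119). Mitosis genes tended the other way, with medians of 0.26 and 0.35, and 8 of 63 passed below 0 and 1 above. This count of 9 was 5 without drug-treated replicate 1 at 2 mM and 14 after quantile normalization. Of the 55 effectors, 4 passed below 0 and 2 above: IFIT1 responded by 0.87 at 2 mM and 1.28 at 40 mM (adjusted p = 0.000112), and DDX60, a helicase that aids RIG-I, by 1.45 and 1.91 (adjusted p = 0.0264). IFI6, a membrane protein induced by interferon, responded by 0.75 and 1.15, and IFITM1 by −0.39 and −0.08, while the pair above 0 were TRIM25, a ligase that activates RIG-I, at 0.16 and −0.03, and CNP at 0.20 and 0.03. The 3 genes not yet named with the smallest p were SLC20A1, a phosphate importer, at −0.14 and 0.29, the splicing factor SRSF6 at 0.50 and 0.11, and the translation factor EIF4A2 at −0.37 and −0.11.

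**Figure D4:**
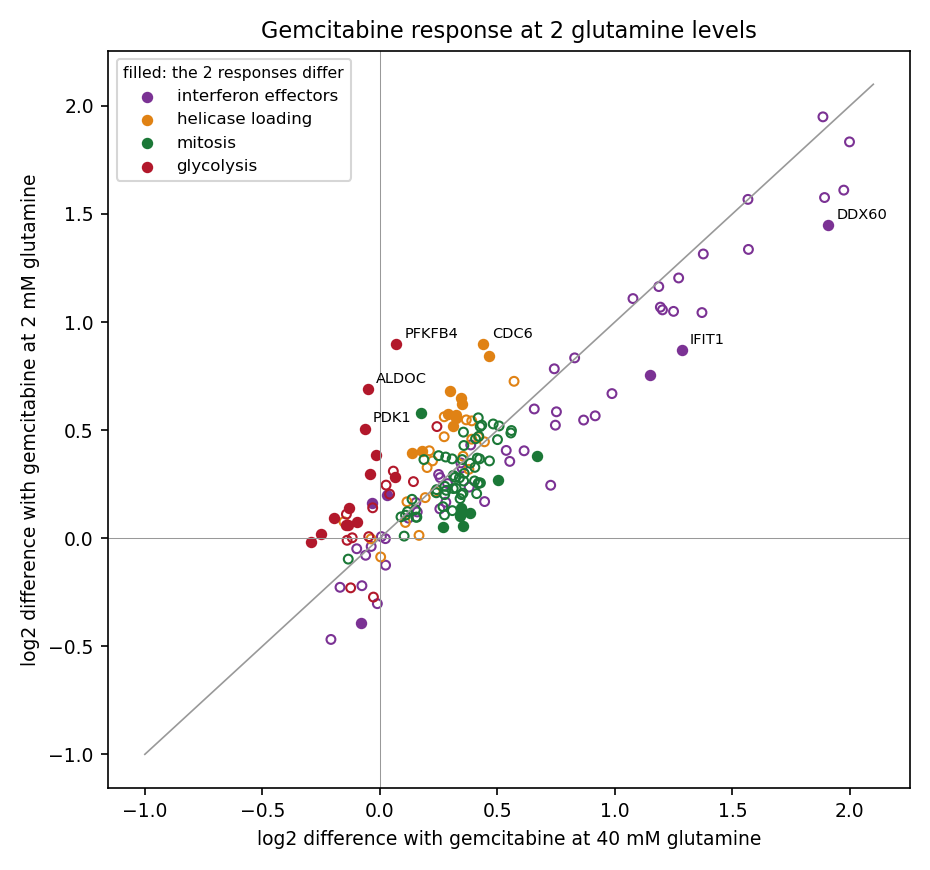
Log2 difference with gemcitabine at 2 mM glutamine (vertical axis) against that at 40 mM (horizontal axis) for the tested genes of 4 lists; filled points passed the test of the difference and the grey diagonal marks equal responses. Filled glycolysis points (13) and helicase-loading points (11) lie above the diagonal.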

How the data were processed

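RNA of MIA PaCa-2 cells was sequenced in 12 libraries, 4 groups of 3. The deposited table holds log2 values per gene symbol, per the file headers 1 column per library. Read from its values, the deposited log2 unit is log2(RPM + 1), and 100% of the values behind it came out as whole reads within 0.05 read, after scaling factors of 0.979 to 1.03. The genome build, aligner, counter, strand setting and scaling method were not given in the sources used here.

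Fits to these log2 values used limma 3.58.1 (R 4.3.3) with 1 mean for each of the 4 groups, a mean-variance trend and moderated variances. All p-values are two-sided and were adjusted by the Benjamini-Hochberg method, with calls at 0.05. Genes entered with at least 1 RPM in at least 3 libraries. Replicates of a group differed beyond sampling noise, with a chi-square over its degrees of freedom of 2.36 to 5.43. The procedure was tested on simulated data, in which 67, 67 and 66 genes were changed by 1.2-fold, 1.5-fold and 2-fold. It recovered 56.7%, 71.6% and 93.9% of them, and 3 of the 151 genes called had not been changed. Far fewer genes were changed there than were called here, so these shares need not hold for the real data. A gene that did not pass may still have changed by a small amount. Low depth limits precision for genes near 1 RPM, and intervals cover counting and replicate spread only.

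Members and lists were chosen with earlier results of these data known. Genes are named by rule: the 16 largest rises and falls at or above the median level and the 6 largest below it, among called genes whose groups did not overlap, up to 5 members of each list by smallest p, a fixed set of interferon, damage and drug metabolism genes, and the 10 smallest p of the difference between glutamine doses. Genes named outside the rule were chosen after their values were seen: ATM, CDC25B, CDC45, CDKN1B, CNP, E2F7, HBEGF, IFI6, IFITM1, IFITM2, IFITM3, MX2, NCAPG, NLRC5, NT5C, OAS1, RAD54B, RNF213, TRIM25, TXNRD1, ULBP1 and USP18. Some genes of the lists are counted but not reported by name here. Symbols are the table's own, matched to RefSeq names (14189 current, 336 older, 565 unmatched). Promoters are RefSeq's for GRCh38.p14, a build that may differ from the authors', and were matched by symbol for 10055 tested genes. For 8 of the 9 printed, the first bases after the start were found in a GENCODE transcript of the gene; KIF11 was the exception. Motifs and gene classes were chosen after values were seen. The alternatives tried were the 6 libraries alone, a replicate block, a pseudocount of 0.25, no filter, a filter at 5 RPM, quantile normalization, no scaling factors, voom weights on the recovered reads, robust moderation, and leaving out each library.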

Additional observations from a re-analysis of the deposited data

Results flagged for a closer look

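For 25 of the genes named above, the gemcitabine response at 2 mM glutamine differed from that at 40 mM by the test of the difference itself (limma interaction, adjusted over all tested genes; adjusted p from 4.66e-07 for SLC20A1 to 0.0431 for CNP). The response at 2 mM minus that at 40 mM, on the log2 scale, was 0.83 for PFKFB4, 0.57 for PDK1, 0.46 for CDC6, 0.40 for SRSF6, 0.40 for SLC2A1, 0.38 for MCM5, 0.38 for MCM10, 0.34 for PCNA, 0.33 for TK1 and 0.30 for COL17A1. It was 0.27 for LDHA, 0.27 for PKM, 0.27 for RRM2, 0.26 for SLC29A1, 0.24 for CTPS1, 0.19 for TRIM25, 0.18 for NOP56, 0.17 for CNP and 0.14 for KRT8. The genes below 0 had −0.46 for DDX60, −0.43 for SLC20A1, −0.41 for IFIT1, −0.40 for IFI6, −0.32 for IFITM1 and −0.27 for EIF4A2. The series-wide share of genes past this test was 2.2%.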

How the results depend on the processing

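Counts of genes that rose and fell at 2 mM glutamine stayed within 1.5 times under every alternative run: 2107 to 2378 rose and 2058 to 2284 fell with all libraries, 2372 and 2298 with the 6 libraries at 2 mM alone, and 1836 to 2064 rose and 1703 to 1950 fell without 1 library. The share of rises among calls was 50.59%, and between 48.21% after quantile normalization and 53.61% without scaling factors. The count for the difference between the responses was 212 to 331 with all libraries and 155 to 366 without 1 of the 12. Falls in the recombination list numbered 0 to 2 and in the glycolysis list 1 to 2 without 1 library; the cause was not tested. Of 298 called genes among the 316 followed, 280 passed under all alternatives in which they were tested, 18 did not pass under some, and 0 reversed. The single 2-fold fall was not stable: AATBC ranged from −1.26 to −0.91 over the alternatives. Under some, falls of NTN5 (to −1.43), ZNF382 (to −1.42), BMF (to −1.29), SIGIRR (to −1.10) and RHOU (to −1.09) exceeded 2-fold. Among rises, COL17A1 (down to 0.99) and STING1 (down to 0.96) went under that limit in some. No clear pairing by replicate number was seen: deviations of same-numbered libraries correlated by −0.00933 to 0.0159 between the groups at 2 mM and by −0.0768 to 0.0480 over all pairs of groups. Between untreated libraries at 2 mM and drug-treated ones at 40 mM they were 0.0327, 0.0415 and 0.0332, with different-numbered pairs all below 0. Between the groups at 40 mM all same-numbered pairs were below 0. With 3 libraries per group such values cannot exclude a pairing. With the replicate block, 2240 genes rose and 2184 fell, and 306 differed in response. Genes near 1 RPM rest on few reads, and 3 libraries per group limit every comparison.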

Other observations

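Further groups moved with the drug at 2 mM glutamine. Of 24 tested chaperones and sensors of the endoplasmic reticulum, 13 rose and 2 fell, with a median log2 difference of 0.12, and MANF, a stress-induced secreted factor, rose by 0.53. Of 17 host genes of small nucleolar RNAs, 8 rose and 2 fell. Of 19 histone genes, 9 rose and 1 fell. Close relatives make histone counts uncertain.

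Some gene classes were looked at after values had been seen and have no test. Of 391 tested zinc finger genes with a numbered ZNF symbol, 23 rose and 77 fell (median −0.080), against 2214 and 2108 of the other 12398 (median 0.0013). Their mean untreated level, 3.71 on the log2(RPM + 1) scale, was under the 4.74 of other genes. Genes of chromosome 19 other than these also fell more often than they rose, with 113 of 764 higher and 185 lower (median −0.043). At 40 mM glutamine the medians were −0.057 for the zinc finger genes and −0.090 for the other genes of chromosome 19. The tenth of genes with the longest span in RefSeq had 11.1% higher, 25.3% lower and a median of −0.044, and the tenth with the shortest span had 17.9% higher, 10.4% lower and a median of 0.030. At 40 mM glutamine the medians were −0.044 for the longest and 0.0015 for the shortest.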
